A study of Homo sapiens with 30 samples.

Results

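AJUBA and 9 other genes of the Hippo pathway (CCN1, CCN2, ANKRD1, AMOTL2, LATS2, AXL, F3, YAP1 and TEAD1) were followed through every condition of a nascent transcription study in the A549 line of human lung adenocarcinoma cells. They are 10 of the 58780 genes of the deposited count table, taken by symbol, and each had 1 row and passed the filter on low counts. The set was chosen by the measured fall of AJUBA after 15 min of dexamethasone (Dex, a synthetic glucocorticoid) against untreated cells, so values of that contrast are given without a test. The study measured PRO-seq (precision run-on sequencing), which reads the RNA that polymerases were extending when the cells were permeabilised and so reports ongoing transcription, not stored mRNA. Cells were untreated, or received Dex at 100 nM for 15 min or 3 h, Dex for 3 h together with 1 µM of GSK591 or of MS023, either inhibitor alone for 2, 4 or 7 days, or either inhibitor for 7 days and then Dex for 15 min or 3 h. GSK591 blocks PRMT5, which makes symmetric dimethylarginine, and MS023 blocks the Type I enzymes, which make asymmetric dimethylarginine. All 15 groups, the untreated cells included, held 0.01% DMSO, and each had 2 libraries. The labels do not say whether the 2 libraries were separate experiments, so p-values measure the spread between these samples, which may be technical. The untreated group, labelled 15 min, was the only one without drug and served for all times. Against it, days of inhibitor cannot be told apart from days in culture.

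The Hippo pathway is a kinase relay that restrains growth. The kinases MST1 and MST2 (genes STK4 and STK3) activate LATS1 and LATS2, which phosphorylate the coactivators YAP1 and TAZ (gene WWTR1) and keep them out of the nucleus. When the relay is low, YAP1 and TAZ bind TEAD factors and raise targets such as CCN1, CCN2 and ANKRD1, in epithelia often with cell spreading and tension. AJUBA is a LIM-domain scaffold of adherens junctions that binds LATS kinases and restrains them, so it acts upstream of YAP1.

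Total counts ran from 8441211 to 13069598 per library, of which mitochondrial genes took 58.7% to 78.7%. This share was 58.7% to 66.1% in the 10 libraries given MS023 for 2 to 7 days, with or without Dex after it, against 76.0% and 73.4% in the untreated libraries. When mitochondrial and ribosomal RNA genes were left out of the fit, all 71 calls of members kept their direction and passed. That fit kept TMM scaling, which trims extreme genes, so little change could come of it. Under scaling by total counts, which include the mitochondrial reads, 39 of the 71 calls were kept. In the group given MS023 and Dex together, replicate 1 had a mitochondrial share of 71.2% and replicate 2 of 61.0%, and their log2 levels correlated least of all groups (r = 0.923). The shares were 78.2% and 69.8% for GSK591 then 15 min of Dex, and 73.7% and 78.7% for 7-day GSK591. Replicates of these GSK591 groups differed most by chi-square per gene, mitochondrial genes included (82.5 and 73.4, against 39.4 for MS023 with Dex). The fit holds 1 spread per gene for all groups, so it may understate theirs. The A549 markers KRT8 (157 to 456 CPM, counts scaled to the library size) and AKR1B10 (101 to 209 CPM) were high in every library, and CDKN2A, deleted in this line, had 0 to 3 counts. EPCAM (0.957 to 6.19 CPM) and CDH1 (1.00 to 6.65 CPM) were low. The 9 leukocyte, endothelial and fibroblast markers summed to 4.26 to 11.1 CPM, of which COL1A1 gave 2.41 to 8.24 CPM, and CD3E, CDH5, PTPRC, PECAM1, VWF, COL1A2 and LUM were at 0 in at least 1 library.

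To show what the members with the widest changes carry at their starts, the 250 bases before the RefSeq start (GRCh38.p14) were read for the 8 members listed there in 11 entries. CCN1 and TEAD1 had none. The letters GGAATG, the core of the TEAD site, were searched on either strand and are in capitals. All 3 sequences lie on the minus strand and are written 5′ to 3′ toward the gene: CCN2 at chr6:131951373-131951622, ANKRD1 at chr10:90921088-90921337 and AJUBA at chr14:22982552-22982801.
CCN2: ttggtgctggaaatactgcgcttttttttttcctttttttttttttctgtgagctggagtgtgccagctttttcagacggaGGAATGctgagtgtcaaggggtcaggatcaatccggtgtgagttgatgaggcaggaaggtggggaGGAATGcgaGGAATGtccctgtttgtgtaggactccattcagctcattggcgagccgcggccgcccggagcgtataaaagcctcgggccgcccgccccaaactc
ANKRD1: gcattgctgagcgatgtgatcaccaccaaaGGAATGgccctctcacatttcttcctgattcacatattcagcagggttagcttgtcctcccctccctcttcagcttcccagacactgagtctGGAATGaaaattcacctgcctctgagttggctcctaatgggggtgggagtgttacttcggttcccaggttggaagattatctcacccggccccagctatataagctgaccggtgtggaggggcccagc
AJUBA: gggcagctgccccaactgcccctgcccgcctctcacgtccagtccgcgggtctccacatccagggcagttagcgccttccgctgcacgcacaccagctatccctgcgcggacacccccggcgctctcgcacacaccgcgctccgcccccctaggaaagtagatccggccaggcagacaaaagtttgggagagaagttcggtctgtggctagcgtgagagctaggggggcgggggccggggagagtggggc

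CCN2 held the letters 3 times, at 169, 104 and 95 bases before its start, and ANKRD1 held them 2 times, at 220 and 128 bases. The window printed for AJUBA held none, and that of its other RefSeq start held 1. YAP1, the other start of AMOTL2 and the other start of AXL held 1 each. Of 35116 promoters of this length, 11.89% held the letters at least once and 0.0826% held them 3 times or more. The glucocorticoid receptor core ACANNNTGT, found in 4.608% of promoters, was in none of the 11 windows. TGANTCA, a pattern wider than the AP-1 letters TGAGTCA, was found in 6.573% of promoters. It occurred 2 times before F3 (TGAATCA and TGAGTCA) and 1 time before ANKRD1 (TGATTCA), where it does not overlap GGAATG. Of these, only the TGAGTCA before F3 has the AP-1 letters. A match is a description of letters and not of binding.

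In untreated cells the levels per kilobase of exon were highest for AMOTL2 (13.5 CPM per kb), CCN1 (10.4), AJUBA (9.65) and AXL (8.81). They were lower for CCN2 (4.05), ANKRD1 (3.07), YAP1 (3.07) and TEAD1 (2.41), and lowest for LATS2 (1.82) and F3 (1.19). The feature the authors counted is not given in the sources used here, so exon length may not be the length that was counted, and this order between genes is only as firm as that choice. Across the 15 groups ANKRD1 varied most, from a group mean of 2.67 CPM after 4 days of MS023 to 29.4 CPM after 7 days of GSK591 and 15 min of Dex, an 11.0-fold range. CCN2 spanned 4.14-fold and AJUBA 3.53-fold, while LATS2 and YAP1 spanned 1.82-fold each. The members did not move as 1 block. Of the 45 pairs of members, 6 had Pearson's r above 0.5 over the 15 group means of log2 CPM, and the median r was 0.13. The closest pair was CCN2 and ANKRD1 (r = 0.83, Spearman's rho = 0.80), followed by ANKRD1 and TEAD1 (r = 0.72) and CCN1 and CCN2 (r = 0.71). AXL and YAP1 ran opposite to each other (r = -0.75). AJUBA had r = 0.00 with CCN1, -0.26 with CCN2 and -0.28 with ANKRD1 (Spearman's rho 0.19, 0.04 and -0.10). Its highest r with a member was 0.47, with AMOTL2 (rho = 0.45). These r values describe 15 points from the same libraries and scaling. Among the points are untreated cells and Dex for 15 min, the contrast that chose AJUBA.

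**Figure D1:**
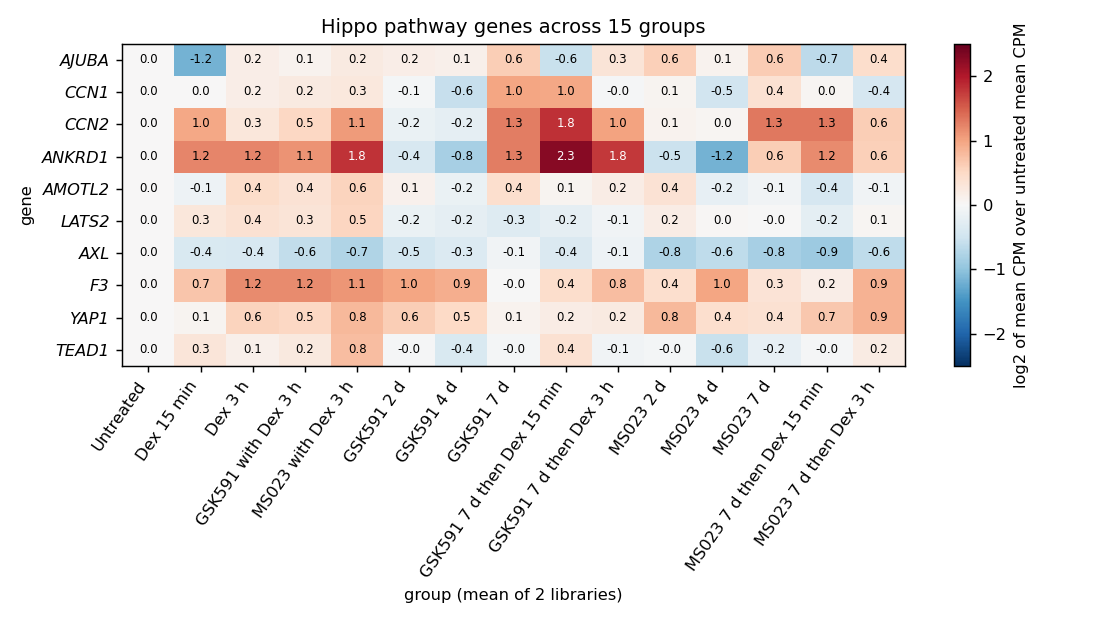
Log2 difference of each member's group mean CPM from untreated cells (colour, scale at right) for the 10 genes (rows) in the 15 groups (columns, 2 libraries each). ANKRD1 shows both the deepest fall, after 4 days of MS023, and the highest rise, after 7 days of GSK591 and 15 min of Dex, while AJUBA is below untreated cells only in the 3 columns with 15 min of Dex.

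The first comparison asked how 15 min of Dex changed AJUBA. Its exons (chromosome 14, 22971174 to 22982642, minus strand, GENCODE 29 on GRCh38, ENSG00000129474.15) share 50 of 5979 bases with AL132780.3 on the same strand, so reads there are uncertain. AJUBA stood at 56.7 and 58.6 CPM in the untreated libraries and at 27.2 and 23.5 CPM after 15 min of Dex, the contrast that chose it (log2 fold change -1.18, SE 0.123, given as a description). The test used libraries outside that contrast, though the members were chosen with earlier results of these data known. Every comparison of AJUBA with untreated cells below shares the untreated libraries with the contrast that chose it. After 7 days of GSK591 it stood at 83.9 and 92.7 CPM, and 15 min of Dex brought it to 37.4 and 41.1 CPM. This was 44.6% of the level in the separate libraries without Dex (log2 fold change -1.17, SE 0.119, edgeR adjusted p = 8.22e-10). After 7 days of MS023 it stood at 88.3 and 91.0 CPM, and with Dex at 34.8 and 38.5 CPM, or 40.9% of the level without Dex (log2 fold change -1.29, SE 0.116, edgeR adjusted p = 1.03e-11). In neither arm did the groups overlap, and the call held without any one of the 4 libraries and under each other scaling, filter and tool tried. In bulk samples, fewer cells transcribing a gene and less transcription per cell cannot be told apart.

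By 3 h the level of AJUBA was back among those of cells without Dex. It stood at 65.6 and 64.2 CPM after Dex alone for 3 h, slightly above both untreated libraries, without passing the test (log2 fold change 0.17, 95% interval -0.06 to 0.40). After GSK591 and 3 h of Dex it stood at 67.2 and 77.3 CPM, and after MS023 and 3 h of Dex at 74.9 and 81.4 CPM. These levels lay below those of the inhibitor alone (log2 fold changes -0.29, edgeR adjusted p = 0.105, and -0.20, edgeR adjusted p = 0.294) but the differences did not pass. Set against 15 min over both inhibitor arms, AJUBA at 3 h was higher by 0.98 on the log2 scale (SE 0.0830, edgeR adjusted p = 1.48e-13), close to a 1.98-fold rise. Over all 15 groups, the 6 libraries with 15 min of Dex ranged from 23.5 to 41.1 CPM and the other 24 from 56.0 to 94.5 CPM, so AJUBA separated them without overlap, a split that includes the libraries used to choose it. In the order of the groups, the highest were MS023 and GSK591 at 7 days (89.6 ± 1.88 and 88.3 ± 6.22 CPM, SD, n = 2) and the lowest Dex for 15 min (25.4 ± 2.65 CPM), and neighbouring groups did not overlap in 3 of 14 steps.

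**Figure D2:**
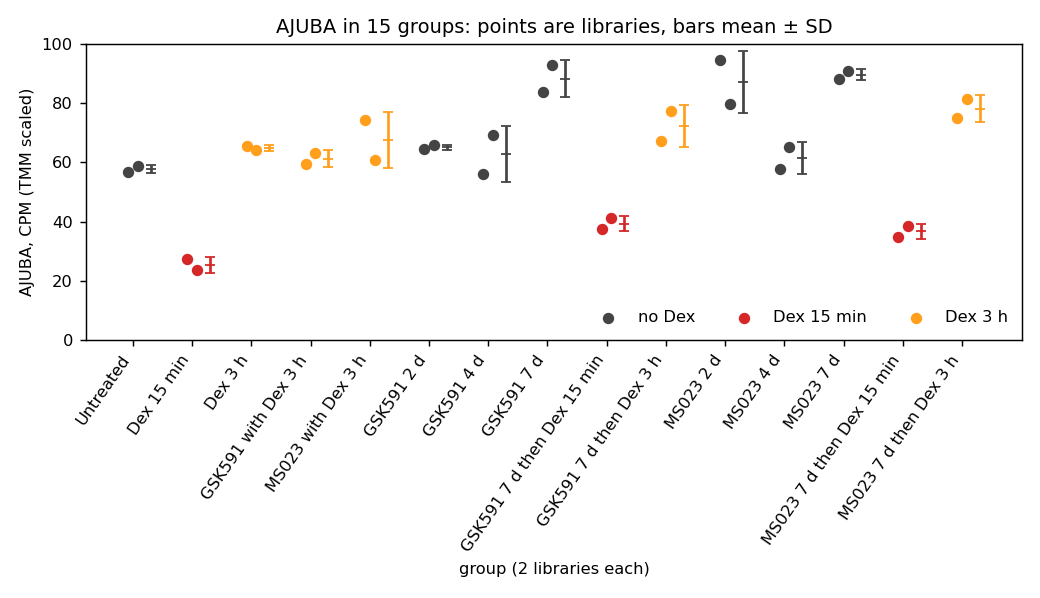
AJUBA in CPM scaled by TMM (y axis) in the 15 groups (x axis), where points are libraries and bars are the mean ± SD of 2 libraries. The 6 libraries with 15 min of Dex lie between 23.5 and 41.1 CPM, below all 24 others.

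In the 15 min tests after inhibitor, 3 members differed after GSK591 (AJUBA, CCN2 and ANKRD1), where 2.09% of all genes tested were called, and 1 (AJUBA) after MS023, where 2.07% were called. ANKRD1, a muscle ankyrin repeat protein and a TEAD target, rose from 15.8 and 13.8 CPM to 33.9 and 25.0 CPM after GSK591 (log2 fold change 0.98, SE 0.189, edgeR adjusted p = 0.00167). Without replicate 2 of 7-day GSK591 (log2 0.89, edgeR adjusted p = 0.0627) or replicate 1 of GSK591 then Dex (log2 0.75, edgeR adjusted p = 0.0570) it did not pass. After MS023 its values were 8.22 and 10.5 CPM without Dex and 14.5 and 13.2 CPM after Dex (log2 fold change 0.57, edgeR adjusted p = 0.148). CCN2, a matricellular growth factor also known as CTGF, rose from 22.1 and 23.9 CPM to 30.9 and 36.2 CPM after GSK591 (log2 fold change 0.55, SE 0.136, edgeR adjusted p = 0.0159). That call was lost without replicate 1 (0.50) or 2 (0.61) of 7-day GSK591 or replicate 2 of GSK591 then Dex (0.43), and 195 bases of its exons overlap the antisense gene AL133346.1. After MS023, CCN2 did not differ at this depth, with a log2 fold change of 0.00 and a 95% interval of -0.26 to 0.26. Whether the responses of CCN2 in the 2 inhibitor arms differ was not tested.

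Over both inhibitor arms together, where 5.12% of genes were called, 3 members differed. They were AJUBA (lower), ANKRD1 (log2 fold change 0.77, SE 0.135, edgeR adjusted p = 1.36e-04) and AMOTL2 (-0.35, SE 0.0762, edgeR adjusted p = 0.00171). AMOTL2, an angiomotin family scaffold that holds YAP1 outside the nucleus and is itself a YAP1 target, shares 187 exonic bases with RPL39P5 on the same strand. It lay at 108 CPM in each 7-day GSK591 library and at 78.8 and 88.9 CPM after Dex. In the MS023 arm it lay at 74.1 and 78.4 CPM without Dex and at 56.4 and 64.0 CPM after Dex. Neither arm alone passed for AMOTL2 (edgeR adjusted p = 0.0642 and 0.0937), and the joint call was lost under scaling by total counts (-0.39, edgeR adjusted p = 0.255). In the contrast of Dex alone for 15 min with untreated cells, where 1.26% of genes were called, ANKRD1 went from 6.01 and 6.15 to 16.1 and 12.4 CPM, CCN2 from 7.56 and 11.4 to 18.7 and 18.6 CPM and F3 from 3.11 and 3.73 to 5.33 and 5.70 CPM. AXL went from 46.9 and 43.8 to 33.5 and 36.5 CPM, without overlap. CCN1 (24.5 and 26.4 against 23.5 and 27.7 CPM) overlapped, and the log2 fold changes of AMOTL2, LATS2, YAP1 and TEAD1 were -0.13, 0.29, 0.07 and 0.30. These values stand as a description, since the contrast chose AJUBA.

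After 3 h of Dex alone, 5 members differed from untreated cells, where 10.5% of genes were called. The rises were ANKRD1 (6.01 and 6.15 to 18.0 and 10.4 CPM, log2 fold change 1.23, SE 0.223, edgeR adjusted p = 9.82e-05) and F3, the initiator of coagulation known as tissue factor (3.11 and 3.73 to 7.87 and 7.69 CPM, log2 1.18, SE 0.262, edgeR adjusted p = 0.00115). AMOTL2 (log2 0.45, edgeR adjusted p = 0.00276) and YAP1 (18.8 and 19.8 to 24.2 and 32.8 CPM, log2 0.56, edgeR adjusted p = 0.0301) rose too. AXL, a receptor tyrosine kinase, fell from 46.9 and 43.8 to 32.6 and 36.4 CPM (log2 -0.40, edgeR adjusted p = 0.0114). Of these calls, F3 alone held without each library in turn. ANKRD1 was lost without replicate 1 of Dex for 3 h (0.77, edgeR adjusted p = 0.0526), AMOTL2 without that library (0.39) or untreated replicate 1 (0.33), AXL without that library (-0.32) or untreated replicate 1 (-0.35), and YAP1 without untreated replicate 1 (0.52) or 2 (0.60) or replicate 2 of Dex for 3 h (0.33). Scaling by total counts, which raised the median of all genes by 0.15, also ended the calls of AMOTL2 (0.61), AXL (-0.22) and YAP1 (0.74). CCN1 (0.16), CCN2 (0.28), LATS2 (0.38), TEAD1 (0.13) and AJUBA did not pass. The authors' deposited table, which comes from another counting, gives AXL a log2 fold change of -1.05 at 3 h and ANKRD1 one of 1.17. YAP1 and AXL overlap antisense exons (628 and 67 bases), where reads may be shared if strand was not used.

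After 7 days of an inhibitor, 3 h of Dex was followed by a fall of CCN1, the matricellular protein also known as CYR61. CCN1 went from 51.1 and 49.98 CPM in the 7-day GSK591 libraries to 27.5 and 22.7 CPM (log2 fold change -1.01, SE 0.119, edgeR adjusted p = 5.93e-09). In the MS023 arm it went from 33.8 and 32.4 CPM to 19.0 and 18.8 CPM (-0.81, SE 0.117, edgeR adjusted p = 6.59e-07). Without inhibitor it stood at 24.5 and 26.4 CPM untreated and at 27.1 and 29.9 CPM after 3 h of Dex. After GSK591 and Dex the level was close to that of untreated cells, and after MS023 and Dex it was below both untreated libraries. CCN1 was the only member called after GSK591, where 9.85% of genes were called, and 1 of 4 after MS023, where 11.1% were called. CCN2 fell in the MS023 arm from 23.4 and 24.0 to 14.4 and 14.6 CPM (-0.71, SE 0.134, edgeR adjusted p = 1.02e-04). In the GSK591 arm its values were 22.1 and 23.9 against 20.4 and 17.9 CPM (-0.26, edgeR adjusted p = 0.290). The calls of CCN1 in either arm and of CCN2 held without each library in turn, and total counts ended that of CCN2 (-0.72, edgeR adjusted p = 0.0651). YAP1 (26.1 and 24.5 to 31.8 and 38.7 CPM, 0.48, edgeR adjusted p = 0.0398) and TEAD1, a DNA-binding partner of YAP1 (21.5 and 21.4 to 26.4 and 31.1 CPM, 0.42, edgeR adjusted p = 0.0345), rose in the MS023 arm. Both calls were lost without replicate 1 (0.53 and 0.44) or 2 (0.44 and 0.42) of 7-day MS023, without replicate 2 of MS023 then 3 h of Dex (0.33 and 0.30), and with DESeq2 (0.47 and 0.42) or total counts (0.47 and 0.41).

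The interaction, the response to 3 h of Dex after an inhibitor minus the response without it, was called for CCN1 in both arms. It was -1.17 after GSK591 (SE 0.170, edgeR adjusted p = 2.30e-04) and -0.97 after MS023 (SE 0.169, edgeR adjusted p = 0.00220), and both held without each of 8 libraries in turn. Of all genes, 0.223% were called in either interaction. After GSK591, AMOTL2 was called as well (-0.69, SE 0.152, edgeR adjusted p = 0.0254). It rose after Dex alone, from 73.6 and 87.4 to 114 and 106 CPM, and went from 108 CPM in each 7-day GSK591 library to 85.8 and 96.7 CPM. CCN2 was called after MS023 (-0.99, SE 0.213, edgeR adjusted p = 0.0258). Each of these 2 calls was lost in 6 of 8 fits without 1 library. For AMOTL2 these were the fits without untreated replicate 1 (-0.58), either library of Dex for 3 h (-0.63 and -0.75), either of 7-day GSK591 (-0.69 each) or replicate 1 of GSK591 then Dex (-0.61), and for CCN2 those without untreated replicate 1 (-0.73), replicate 2 of Dex for 3 h (-0.91), either library of 7-day MS023 (-1.0 and -0.97) or either of MS023 then Dex (-0.97 and -1.0). Under total counts no gene was called in either interaction (CCN1 -1.13 and -1.15). ANKRD1 after MS023 (-1.26, edgeR adjusted p = 0.0563) did not pass. Both interactions use the same untreated and Dex libraries, so they are not independent of each other. Nor can pretreatment with an inhibitor be told apart from time in culture in them.

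Between 15 min and 3 h of Dex, compared over both inhibitor arms, 7 members differed, where 23.8% of genes were called. AJUBA rose, while CCN1 (-0.73, SE 0.0839, edgeR adjusted p = 1.56e-09), CCN2 (-0.76, SE 0.0964, edgeR adjusted p = 1.52e-08) and ANKRD1 (-0.55, SE 0.133, edgeR adjusted p = 0.00168) fell. These 4 held without each of 8 libraries, and total counts ended only that of ANKRD1 among them (-0.39, edgeR adjusted p = 0.122). AMOTL2 (0.23, edgeR adjusted p = 0.0246), AXL (0.27, edgeR adjusted p = 0.00767) and F3 (0.54, edgeR adjusted p = 0.0198) rose. These 3 were lost in some fits without 1 library: AXL without replicate 1 of MS023 then 15 min of Dex (0.21), and AMOTL2 and F3 in 4 of 8 fits each, with values of 0.17 to 0.18 and 0.32 to 0.51. In those 4 fits the library left out was replicate 1 of MS023 then 15 min, replicate 2 of either inhibitor then 3 h, or, of GSK591 then 15 min, replicate 1 for AMOTL2 and replicate 2 for F3.

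**Figure D3:**
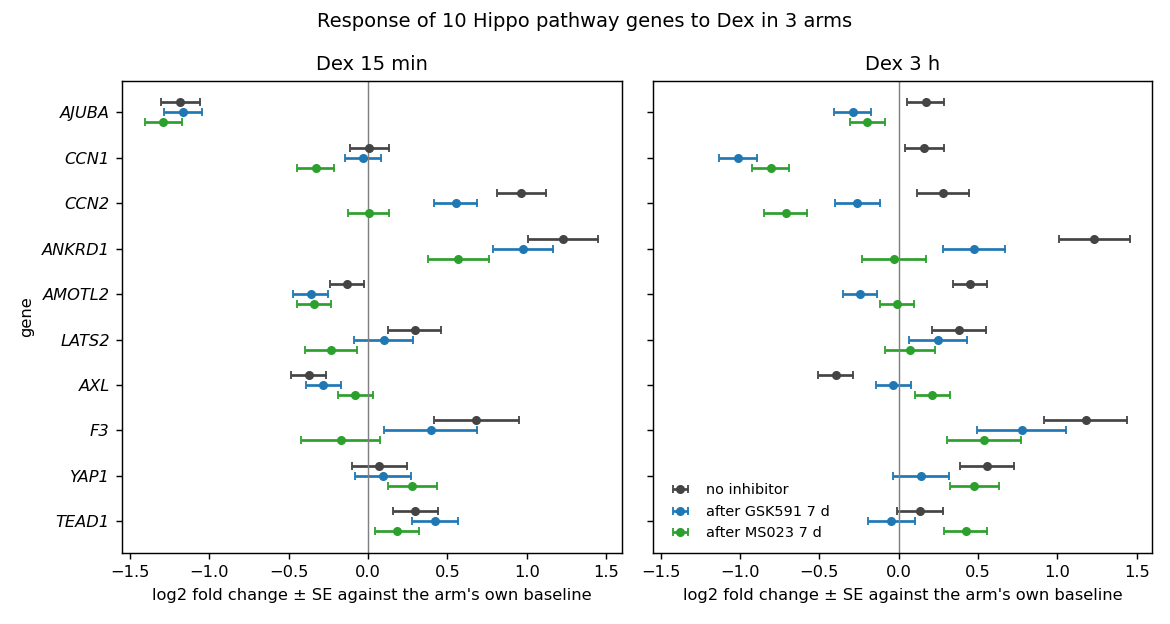
Log2 fold change (x axis) of the 10 genes (y axis) after 15 min (left) and 3 h (right) of Dex, with bars of ± 1 SE from the edgeR fit. Each value is against separate libraries of the same arm without Dex: no inhibitor, 7 days of GSK591 or 7 days of MS023. AJUBA is near -1.2 in all 3 arms at 15 min, of which the arm without inhibitor chose it, and CCN1 is below 0 at 3 h only after an inhibitor (-1.01 and -0.81, against 0.16).

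Dex and an inhibitor given together for 3 h were compared with Dex alone. With GSK591 no member and no gene at all passed the edgeR test (0% of genes), while 1306 genes and no member had an unadjusted p under 0.05, and DESeq2 also called none. The 95% intervals of the members lay within -0.51 and 0.54. With MS023, 2 members differed, where 0.196% of genes were called. CCN2 stood at 19.7 and 20.0 CPM against 10.9 and 12.2 CPM (log2 fold change 0.78, SE 0.151, edgeR adjusted p = 0.0271), and TEAD1 at 35.9 and 49.2 CPM against 25.9 and 28.5 CPM (0.65, SE 0.139, edgeR adjusted p = 0.0280). Both calls were lost without replicate 1 (0.70 and 0.58) or 2 (0.86 and 0.72) of Dex for 3 h and without replicate 2 of MS023 with Dex (0.77 and 0.40), the library with the lower mitochondrial share.

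With either inhibitor alone, ANKRD1, CCN1 and CCN2 lay below or near untreated cells at 4 days and higher at 7. These 3 were singled out after the values were seen. No group without inhibitor was labelled 2, 4 or 7 days, so days of inhibitor and time in culture cannot be told apart. ANKRD1, at 6.01 and 6.15 CPM in untreated cells, stood at 3.46 and 3.41 CPM after 4 days of GSK591 and at 15.8 and 13.8 CPM after 7 days. With MS023 the values were 3.06 and 2.28 CPM at 4 days and 8.22 and 10.5 CPM at 7 days. CCN1 followed the same order, at 16.7 and 17.4 CPM and then 51.1 and 49.98 CPM with GSK591, and at 17.2 and 19.4 CPM and then 33.8 and 32.4 CPM with MS023. CCN2 stood at 7.78 and 8.42 CPM at 4 days of GSK591, within or near the untreated values of 7.56 and 11.4 CPM, and at 22.1 and 23.9 CPM at 7 days. With MS023 it stood at 9.59 and 9.97 CPM and then at 23.4 and 24.0 CPM. F3, also a target, was above untreated cells at 4 days, at 5.76 and 7.12 CPM with GSK591 and 6.61 and 6.91 CPM with MS023, and at 7 days stood at 3.95 and 2.81 CPM and at 4.39 and 4.27 CPM. The comparison of 7 with 4 days was added after these values had been seen. It gave log2 differences with GSK591 of 2.11 for ANKRD1 (SE 0.243, edgeR adjusted p = 1.11e-07), 1.57 for CCN1 (SE 0.122, edgeR adjusted p = 1.79e-13) and 1.5 for CCN2 (SE 0.156, edgeR adjusted p = 1.93e-09). With MS023 they were 1.80, 0.85 and 1.28 (SE 0.238, 0.117 and 0.140, edgeR adjusted p = 1.08e-06, 8.20e-07 and 3.95e-09). With GSK591 6 members differed, where 8.29% of genes were called, and with MS023 4, where 9.04% were called. AJUBA was among them with both inhibitors (0.49 and 0.54), but with GSK591 its call was lost without replicate 1 of 4 days (0.36), without replicate 2 of 7 days (0.42) and under total counts (0.05). AMOTL2 (0.58) rose with GSK591 and lost its call under total counts (0.14), and F3 (-0.91) fell but lost its call without either library of 4 days (-1.04 and -0.75) or replicate 2 of 7 days (-0.70).

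At 7 days of GSK591, 5 members were higher than in untreated cells and none was called lower, where 13.2% of genes were called and 6.68% were higher. The log2 fold changes were 1.29 for ANKRD1 (SE 0.224, edgeR adjusted p = 6.22e-05), 1.27 for CCN2 (SE 0.154, edgeR adjusted p = 2.79e-08), 0.99 for CCN1 (SE 0.118, edgeR adjusted p = 1.73e-08), 0.61 for AJUBA (SE 0.116, edgeR adjusted p = 1.29e-04) and 0.42 for AMOTL2 (SE 0.108, edgeR adjusted p = 0.00491). AMOTL2 was lost without untreated replicate 1 (0.31) and, with AJUBA, under total counts (0.39 and 0.58). At 7 days of MS023, where 13.6% of genes were called, CCN2 (1.32, SE 0.148, edgeR adjusted p = 4.19e-09), AJUBA (0.64, SE 0.114, edgeR adjusted p = 6.56e-05) and CCN1 (0.38, SE 0.117, edgeR adjusted p = 0.0232) were higher and AXL was lower. The call of CCN1 was lost without any one of its 4 libraries (0.33 to 0.43) and with DESeq2 (0.39). Beside these calls, the 9 markers of other cell types summed to 9.07 and 10.9 CPM at 7 days of MS023 against 5.34 CPM in each untreated library, with COL1A1 (3.25 to 7.20 CPM on average, 1.14, edgeR adjusted p = 0.00108) and CDH5 (0.217 to 1.15 CPM on average, 2.37, edgeR adjusted p = 0.0286) called higher, and their part in the result was not tested. ANKRD1 after 7 days of MS023 had a log2 fold change of 0.62 (edgeR adjusted p = 0.0566).

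At 4 days each inhibitor had members called in both directions. GSK591 called 5 members, where 17.2% of genes were called, with CCN1 (-0.58, SE 0.126, edgeR adjusted p = 7.40e-04), ANKRD1 (-0.82) and AXL (-0.34) lower and F3 (0.90) and YAP1 (0.50) higher. Only the call of CCN1 among these held without each library, and total counts ended it (-0.16). ANKRD1 (-0.80 to -0.84) and YAP1 (0.41 to 0.58) were lost without any one of their 4 libraries, AXL without untreated replicate 1 (-0.29) or either 4-day library (-0.39 and -0.31), and F3 without untreated replicate 1 (0.79) or replicate 2 of 4 days (0.75). MS023 also called 5, where 14.2% of genes were called. ANKRD1 (-1.18, SE 0.266, edgeR adjusted p = 0.00159), AXL (-0.64, SE 0.107, edgeR adjusted p = 1.97e-05), CCN1 (-0.48) and TEAD1 (-0.56) were lower and F3 (0.98) was higher. The falls of AXL, CCN1 and TEAD1 after 4 days of MS023 turned to 0.11, 0.26 and 0.18 under total counts, which raised the median of all genes there by 0.74. CCN1 was lost without untreated replicate 2 (-0.42) or replicate 1 of 4 days (-0.39), TEAD1 without the latter (-0.48) and F3 without untreated replicate 1 (0.86).

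**Figure D4:**
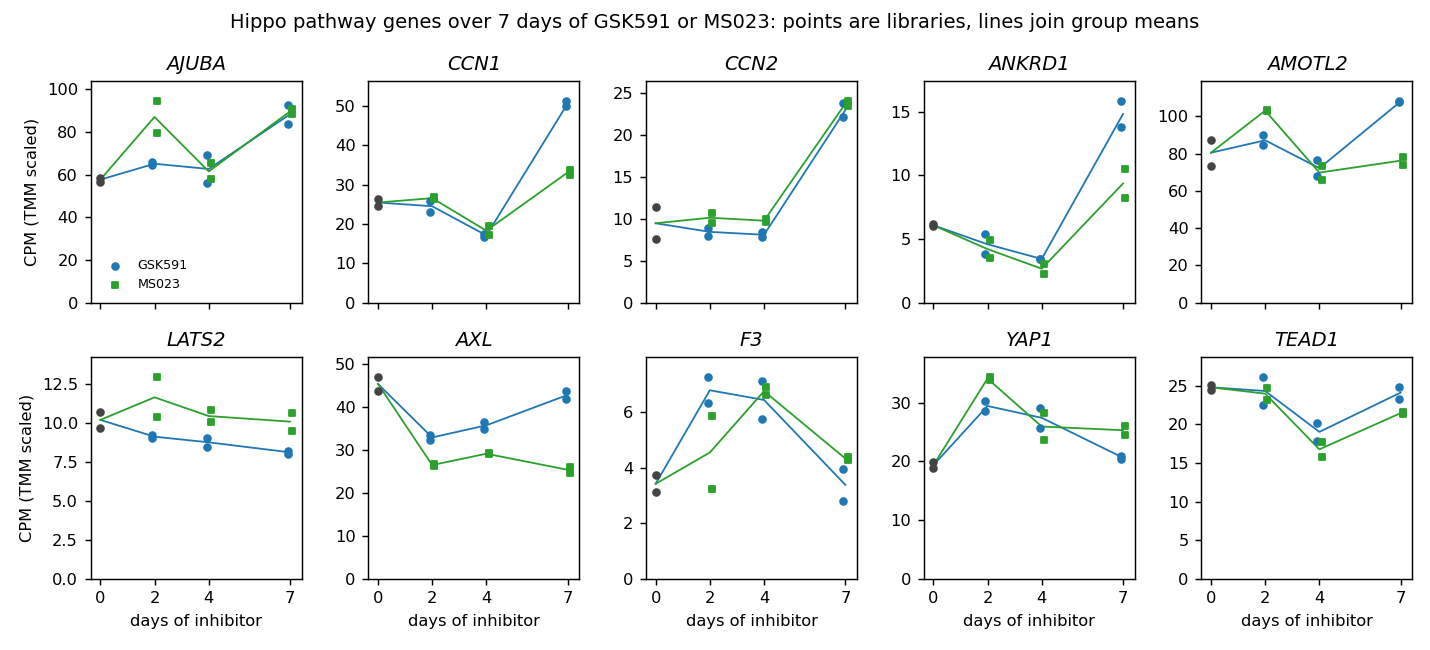
Level of each of the 10 genes in CPM scaled by TMM (y axis, from 0) by days of GSK591 or MS023 (x axis, with untreated cells at 0), where points are libraries and lines join means of 2 libraries. CCN1 and ANKRD1 are below untreated cells at 4 days and above them at 7, and AXL with MS023 stays between 24.6 and 29.2 CPM, below the untreated 43.8 and 46.9 CPM.

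AXL and YAP1 already differed at 2 days. AXL stood at 46.9 and 43.8 CPM in untreated cells, its highest group, and at 26.3 and 26.7 CPM after 2 days of MS023 (log2 fold change -0.78, SE 0.110, edgeR adjusted p = 1.5e-06). With MS023 it was lower at all 3 times (-0.78, -0.64 and -0.84), each call holding without each library, whereas total counts gave -0.10, 0.11 and 0.18 against a median of all genes raised by 0.68, 0.74 and 1.02. Taking that median away gave -0.77, -0.63 and -0.84. This centres the genes much as TMM does, so it returns nearly the TMM values by construction and is no separate support. A fall of AXL and a general rise of other genes with MS023 cannot be told apart by it. With GSK591 it was lower at 2 days (-0.46, edgeR adjusted p = 0.00690) and 4 days (-0.34, turned to 0.08 under total counts) and not at 7 days (-0.08, 95% interval -0.30 to 0.13). The 2-day call with GSK591 was lost without untreated replicate 1 (-0.41), either 2-day library (-0.44 and -0.49) and under total counts (-0.17). YAP1, lowest in untreated cells, stood at 34.3 and 33.9 CPM after 2 days of MS023 (0.82, SE 0.166, edgeR adjusted p = 0.00110) and at 28.6 and 30.2 CPM after 2 days of GSK591 (0.61, edgeR adjusted p = 0.0306), the latter lost without any one of its 4 libraries (0.57 to 0.65). In all, 3 members were called at 2 days of GSK591, where 5.64% of genes were called, and 4 at 2 days of MS023, where 10.4% were called. The third with GSK591 was F3 (0.98, lost without any one of its 4 libraries, 0.86 to 1.12). The others with MS023 were AJUBA (94.5 and 79.7 CPM, 0.59, SE 0.115, edgeR adjusted p = 2.82e-04) and AMOTL2 (0.36, lost without untreated replicate 1, 0.24, or either 2-day library, 0.35 and 0.36). LATS2, a kinase of the pathway and a feedback target, passed in none of the 22 comparisons of the main edgeR fit. Its group means ran from 8.10 CPM at 7 days of GSK591 to 14.7 CPM for MS023 with Dex. The authors' deposited tables do call it in some comparisons, as given below.

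The inhibitors were compared with each other at equal time and dose. At 2 days AJUBA differed alone (-0.42, GSK591 against MS023, edgeR adjusted p = 0.0297), where 2.69% of genes were called, and it was lost without either GSK591 library (-0.40 and -0.43), replicate 1 of MS023 (-0.29) and with DESeq2 (-0.41). At 4 days the edgeR test called no member, with 1 at an unadjusted p under 0.05 and none by DESeq2, where 6.03% of genes were called. At 7 days 4 members were higher with GSK591, where 9.38% of genes were called and 4.91% were higher with GSK591: AXL (42.0 and 43.7 against 24.6 and 26.1 CPM, 0.75, SE 0.110, edgeR adjusted p = 1.86e-06), ANKRD1 (0.67, edgeR adjusted p = 0.0283), CCN1 (0.61, SE 0.113, edgeR adjusted p = 1.20e-04) and AMOTL2 (0.50, SE 0.107, edgeR adjusted p = 9.29e-04). Under total counts these turned to -0.29, -0.37, -0.43 and -0.54, against a median of all genes of -1.07. ANKRD1 was lost without either GSK591 library (0.56 and 0.76), replicate 1 of MS023 (0.51) and with DESeq2 (0.67). CCN2 (-0.05, 95% interval -0.32 to 0.22) and AJUBA (-0.02, 95% interval -0.25 to 0.20) had intervals that include no difference.

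Other genes of the pathway were counted from lists, chosen with earlier results of these data known. Of 15 further YAP1 and TAZ targets, all tested, 3 were higher and none lower at 7 days of GSK591, where 13.2% of all genes were called and 6.68% were higher (median log2 fold change 0.31, against -0.0049 over all genes). They were GADD45A, a growth arrest gene (0.81), TGFB2, a TGF-beta ligand (0.71), and NUAK2, a kinase (0.69). At 7 days of MS023, where 13.6% of genes were called, 1 was higher (GADD45A, 0.51) and 1 lower (IGFBP3, -0.42). MYOF, chosen here after its values were seen, stood at 28.8 to 30.5 CPM against 55.1 to 70.8 CPM in untreated cells without passing (-1.09, edgeR adjusted p = 0.0966). At 3 h of Dex alone, where 10.5% of genes were called, 1 was higher (GADD45A, 1.22) and 4 lower, with TGFB2 from 13.8 to 4.21 CPM on average (-1.71, edgeR adjusted p = 9.88e-09) and IGFBP3 (-1.53), which binds insulin-like growth factors, the furthest. After GSK591, where 9.85% of genes were called, 5 were lower and 1 higher at 3 h of Dex, with TGFB2 (-2.29), IGFBP3 (-1.70) and FJX1 (-1.27) leading, and after MS023, where 11.1% were called, 4 were lower and 3 higher, led by TGFB2 (-1.93) and IGFBP3 (-1.84). NUAK2 was the only one of the 15 called after 15 min of Dex in each inhibitor arm (-0.47 and -0.41).

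Of 20 further kinases and scaffolds of the relay, 19 were tested. WWC1 (KIBRA), which activates the relay, fell after 3 h of Dex without inhibitor (-0.48), after GSK591 (-1.19, edgeR adjusted p = 4.50e-10) and after MS023 (-0.35). AMOTL1 fell without inhibitor (-0.92) and after GSK591 (-0.67). Of all genes, 10.5%, 9.85% and 11.1% were called in these 3 comparisons. No gene of this list passed the edgeR test at 15 min in either arm. Of 8 TEAD factors and cofactors, 6 were tested. WWTR1, which encodes TAZ, rose at 15 min after GSK591 (12.8 to 24.2 CPM on average, 0.91, edgeR adjusted p = 0.00349) and after MS023 (19.5 to 30.5 CPM on average, 0.65, edgeR adjusted p = 0.0195), opposite in direction to AJUBA. It was also higher after 3 h of Dex alone (0.56) and at 7 days of MS023 (11.9 and 13.0 to 19.4 and 19.6 CPM, 0.65). Its exons share 795 bases with the antisense gene WWTR1-AS1, where reads may be shared if strand was not used. Of the 5 relatives of AJUBA among LIM proteins, none passed at 15 min in either arm alone, while over both arms ZYX (zyxin) was lower (-0.30, edgeR adjusted p = 0.0385). At 7 days ZYX was higher with GSK591 (0.70) and lower with MS023 (-0.41), and WTIP was higher with GSK591 (0.52). Of all genes, 13.2% were called at 7 days of GSK591 and 13.6% at 7 days of MS023. At 15 min 2.09% were called after GSK591, 2.07% after MS023 and 5.12% over both arms. The genes of these 3 lists are named singly, and whether any list exceeds these shares was not tested.

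The genes whose level followed AJUBA most closely over the 15 group means, among the 11116 genes averaging 5 CPM or more, were AC010271.1 (r = 0.87), CORO1B (0.86), SERPINH1 (0.84), CTSW (0.83) and SORBS3 (0.83). The most opposite were CD55 (-0.85), POLR3C (-0.80) and ITGAV (-0.77). These r values describe 15 points that share libraries and scaling, and carry no test. The points include the groups of the contrast that chose AJUBA. Of the members, AMOTL2 (0.47) came closest, with 7.23% of genes having a higher r.

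The authors' deposited tables, each against untreated cells and from another counting, hold 8 of the 10 members by symbol, all but CCN1 and F3. They give AJUBA log2 fold changes of -1.12 at 15 min of Dex, -0.48 at 7 days of GSK591 then 15 min, -0.66 at 7 days of MS023 then 15 min, 0.65 at 7 days of GSK591 and 0.59 at 7 days of MS023. For AXL the authors' deposited tables give -0.51 after 7 days of GSK591 and -1.47 after 7 days of MS023, where the counts give -0.08 and -0.84, but -0.18 at 15 min of Dex, where the counts give -0.38. For YAP1 the authors' deposited tables give 0.15 after 2 days of GSK591 and 0.092 after 2 days of MS023 (their adjusted p = 0.259 and 0.543), so the 2-day YAP1 calls made here are not called there. Their ANKRD1 value for 7 days of GSK591 then 15 min of Dex is 2.08. The authors also call some members that did not pass here. They give LATS2 -0.34 and -0.33 after 4 and 7 days of GSK591 and 0.24 at 3 h of Dex (their adjusted p = 0.00278, 0.00456 and 0.0470). At 2 days of GSK591 (-0.019) and 7 days of MS023 (-0.13) LATS2 was not called. For TEAD1 they give -0.26 and -0.46 after 7 days of GSK591 and MS023 (their adjusted p = 1.95e-04 and 8.37e-13). For AJUBA they give 0.31 at 3 h of Dex (their adjusted p = 0.0495).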

How the data were processed

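PRO-seq gene counts of 30 libraries in 15 groups of 2 were used as deposited. The authors counted reads per gene with featureCounts 2.0.1 (Subread) on hg38, per the submitters' processing notes, and the aligner, the feature type and the use of strand are not given in the sources used here. The deposited counts are whole numbers, not normalised, and identifiers matched GENCODE 29. The authors' comparison tables hold a mean signal per gene with standard errors, log2 fold changes and p-values, per the file headers, and are quoted only where named.

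Counts were tested with the edgeR 4.0.16 quasi-likelihood test (R 4.3.3, limma 3.58.1, TMM scaling, minimum count 10 and minimum total 15, robust fitting) on all 22919 genes that passed, in 1 fit of all groups with 15 residual degrees of freedom, adjusted by Benjamini-Hochberg over all genes at 0.05 in each comparison. Intervals are 95%. CPM is scaled by TMM. The procedure was tested on simulated data drawn with the spread of the fit itself, equal in all groups. Replicates here differed by a chi-square per gene of 3.72 to 82.5, so that test does not cover the groups with wider spread. Intervals and counts cover no more than these 2 libraries a group.

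Alternatives were DESeq2 1.42.0, total-count scaling, the edgeR fit with size factors from DESeq2, a replicate block, no filter, a fit free of mitochondrial and ribosomal RNA genes, and leaving out each library. Members and lists were chosen with earlier results of these data known. Members called in a comparison are named with it, while those not called are given only in some comparisons. Of each other list at most 4 called genes per comparison are named, largest change first. AJUBA's likeness ranks by Pearson's r of log2 CPM (prior count 2). A comparison of 7 with 4 days was added after the values were seen.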

Additional observations from a re-analysis of the deposited data

Results flagged for a closer look

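In 4 cases the response to 3 h of Dex differed between cells pretreated with an inhibitor for 7 days and cells without it, by the test of that difference in the edgeR fit. For CCN1 the difference was -1.17 on the log2 scale after GSK591 and -0.97 after MS023. For AMOTL2 it was -0.69 after GSK591, and for CCN2 it was -0.99 after MS023. The calls of AMOTL2 and CCN2 were each lost in 6 of 8 fits without 1 library, while those of CCN1 held in all 8. Under total counts no gene was called in either interaction.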

How the results depend on the processing

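Of 220 tested values of the 10 members in 22 comparisons, 71 were called. All 71 kept their call with DESeq2 size factors, under the replicate block and without mitochondrial and ribosomal RNA genes, 68 without the filter, 58 with DESeq2 and 39 under total counts, where values include mitochondrial reads; 39 were called in every fit without 1 library. DESeq2 gave no adjusted p for 8 of the 220 values, which count as not called, and ended 12 calls by its test. Beside the calls already given as lost, DESeq2 ended those of F3 (0.53) and AMOTL2 (0.21) at 3 h against 15 min, of ANKRD1 (-0.81), AXL (-0.33) and YAP1 (0.52) at 4 days of GSK591, of YAP1 at 3 h of Dex (0.56) and of F3 at 7 against 4 days of GSK591 (-0.90). Without the filter AXL at 3 h of Dex (-0.40) and at 4 days of GSK591 (-0.34) and TEAD1 at 3 h after MS023 (0.40) were lost. Total counts also ended CCN2 at 15 min after GSK591 (0.63), ANKRD1 at 4 days of GSK591 (-0.40) and of MS023 (-0.44), AMOTL2 at 3 h against 15 min (0.36) and, in the interactions, AMOTL2 (-0.65) and CCN2 (-1.16). The cause of these changes was not tested.

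Under total counts the sign turned for AXL at 4 days of GSK591 (0.079), for TEAD1 at 2 days of MS023 (0.62), for CCN1 (0.26), AMOTL2 (0.53), AXL (0.11) and TEAD1 (0.18) at 4 days of MS023, for AMOTL2 (0.93), LATS2 (1.01), AXL (0.18) and TEAD1 (0.81) at 7 days of MS023, and for CCN1 (-0.43), ANKRD1 (-0.37), AMOTL2 (-0.54), AXL (-0.29) and TEAD1 (-0.87) in GSK591 against MS023 at 7 days. The number of members called became 2 at 3 h of Dex, 1 at 3 h after MS023, 0 in both interactions, 2 and 3 at 4 and 7 days of GSK591, 8 and 9 at 2 and 7 days of MS023, and 7 in GSK591 against MS023 at 7 days. At 2 and 7 days of MS023 and between inhibitors at 7 days, the median of all genes moved to 0.68, 1.02 and -1.07. The calls over all genes rose there too, as given in the last paragraph, so these counts are no result about the members. With DESeq2 it became 2 at 3 h after MS023, 1 in the MS023 interaction, 2 at 4 days of GSK591 and 0 in GSK591 against MS023 at 2 days. In the MS023 interaction the member no longer counted had no adjusted p under DESeq2, so it did not fail a test there.

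Without 1 library, the members called ranged from 2 to 4 at 3 h of Dex. At 15 min they ranged from 1 to 3 after GSK591, from 1 to 1 after MS023 and from 3 to 5 over both arms. At 3 h they ranged from 1 to 1 after GSK591, from 2 to 4 after MS023 and from 4 to 7 against 15 min. The interactions gave 1 to 2 each. Given with Dex, GSK591 gave 0 to 0 and MS023 0 to 3. At 2, 4 and 7 days GSK591 gave 0 to 1, 1 to 3 and 4 to 5, and MS023 3 to 4, 3 to 5 and 3 to 4. At 7 against 4 days GSK591 gave 4 to 6 and MS023 4 to 4. GSK591 against MS023 gave 0 to 1, 0 to 0 and 3 to 4 at 2, 4 and 7 days.

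Replicate numbers did not pair samples, with deviations correlated above 0.1 in 22 of 105 group pairs (median r = 0.0214). A replicate block added 4 calls: AMOTL2 at 15 min after GSK591 (-0.37), ANKRD1 in the MS023 interaction (-1.25) and at 7 days of MS023 (0.62), and TEAD1 at 4 days of GSK591 (-0.38).

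Counts over all genes moved too. With DESeq2 the called genes went from 2410 to 1522 at 3 h of Dex, from 480 to 284 and 474 to 264 at 15 min after GSK591 and MS023 (1174 to 697 over both), and from 2258 to 1391 and 2543 to 1528 at 3 h. At 2, 4 and 7 days they went from 1292 to 661, 3941 to 2483 and 3026 to 1834 with GSK591 and from 2381 to 1344, 3247 to 1869 and 3127 to 1813 with MS023. They went from 1901 to 972 and 2073 to 939 at 7 against 4 days, and from 617 to 313, 1382 to 738 and 2149 to 1138 between inhibitors. Under total counts those at 2, 4 and 7 days of MS023 became 9228, 11285 and 16196, with the share higher going from 59.5%, 55.1% and 52.3% to 99.2%, 99.01% and 99.5%. Between inhibitors at 7 days they became 16029, of which 0.605% against 52.4% were higher. For Dex they became 1259 at 3 h, 72, 71 and 269 at 15 min and 1363 and 1007 at 3 h after the inhibitors. They became 1135 at 7 days of GSK591, 3663 and 1050 at 7 against 4 days, and 1108 between inhibitors at 2 days. The interactions, with 51 genes each, gave 0 under total counts and 109 and 125 without the filter, and that of MS023 gave 81 under the replicate block and 33 with DESeq2. MS023 with Dex, with 45, gave 122 under total counts, 508 without the filter and 114 under the block, and GSK591 with Dex, with 0, gave 2 without the filter.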
